A study of Drosophila melanogaster with 2 samples.

Results

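Heart and nephrocyte genes of the Drosophila melanogaster embryo were followed in a comparison of wild type embryos with embryos mutant for serpent (srp), a GATA factor gene on which embryonic blood cells and the fat body depend. The set listed 10 genes: the transcription factor and cofactor genes tin, Hand, mid, Doc1, Doc2 and Him, the pericardial matrix gene prc, the nephrocyte uptake gene Cubn, and the nephrocyte diaphragm genes sns and kirre. A gene was measured when the platform annotation assigned at least 1 probe to its symbol alone and both arrays had a value. This held for 7 of the 10 genes, out of 8224 genes measured in all; tin, Hand and sns are not analysed here.

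Total RNA of whole embryos was compared on 2 dye-swapped 2-colour arrays, named A and B. The hemocyte plus embryos were wild type and the hemocyte minus embryos were srp mutants, and the labels call both kinds unwounded on array A but do not repeat the word on array B. The sources used here do not state the allele of srp, the age of the embryos, the number pooled or whether the arrays held separate RNA extracts. The p-values below therefore reflect only spread between these 2 arrays, which may be technical. The test used, limma, gives the spread pooled over all genes more weight than a gene's own (5.01 prior against 1 residual degree of freedom). Its p-values and intervals thus depend little on a gene's own standard deviation (SD) where that is near or below the pooled 0.168. A gene whose arrays lie far apart still gets a wider interval. In RNA of whole embryos, fewer cells of a type and less RNA per cell cannot be told apart.

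The Drosophila heart, or dorsal vessel, is a tube of contractile cardioblasts flanked by pericardial cells. Pericardial cells are nephrocytes, which filter the hemolymph through a diaphragm built from Sns and Kirre, the fly relatives of vertebrate nephrin and Neph1, and take up proteins by endocytosis through the receptor cubilin. Cardioblasts, pericardial cells and the blood progenitors of the lymph gland all come from the dorsal mesoderm, where Tinman, Dorsocross T-box factors and the GATA factor Pannier act together early in heart formation. Several of these genes are also active outside the heart, for example Dorsocross genes in the amnioserosa and kirre in the founder cells of body wall muscles, and the RNA came from all tissues.

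Each value below is a log2 dye ratio, turned so that both arrays run the same way and centred on the median probe of its array. Neither the labels nor the files state which dye is the numerator, so the sign common to both arrays is open. Positive values are called the hemocyte side, since the crystal cell marker PPO1, a prophenoloxidase gene, lay there at 4.81 (array A) and 4.92 (array B). On this likely reading, a positive value means more RNA in hemocyte plus embryos and a negative value, on the opposite side, more RNA in srp mutants. This reading was chosen with the marker values known, and every sign turns if it is wrong. The mutated gene itself, srp, had ratios of 0.15 and 0.36 on arrays A and B, a mean of 0.26 ± 0.15 (SD, n = 2 arrays), which did not pass limma (adjusted p = 0.221). Where its probe lies relative to the lesion is unknown here, so the genotype is not checked by it.

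Of the measured members, 2 passed the test. The pericardial matrix gene prc and the nephrocyte receptor gene Cubn lay on the opposite side and passed limma, at an adjusted p under 0.05 over all genes. The 4 measured regulators and kirre had small positive means, between 0.07 and 0.31, and did not pass. Thus 2 of 7 members passed in the negative direction and 0 in the positive, beside 8.18% and 5.27% of all 8224 genes (13.4% in all). None of the 7 was at least 2-fold on both arrays, as 2.99% of all genes were. The same 2 members were below an unadjusted p of 0.05. No test was made over the members as a set, because they were chosen with earlier results of these data known. Their median was 0.13 and their mean -0.08, beside a median of 0.00 over all genes.

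**Figure D1:**
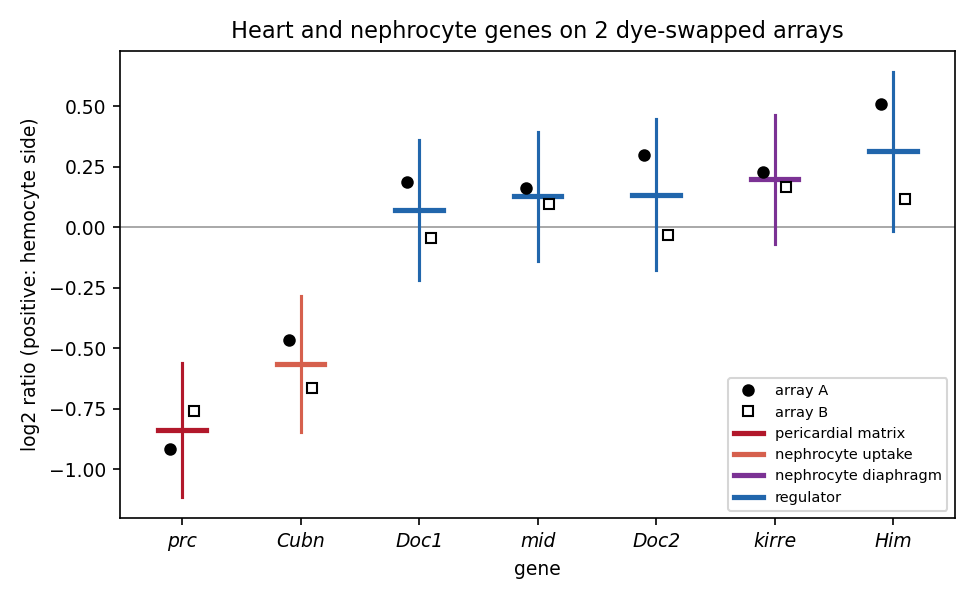
Log2 ratio of each measured member on array A (filled circles) and array B (open squares), with the mean of the 2 arrays (horizontal bar) and limma's 95% confidence interval (vertical line), coloured by role. The genes prc and Cubn lie below 0 on both arrays, and the intervals of the other 5 genes include 0.

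Pericardin, the product of prc, is a collagen-like protein deposited around pericardial cells and along the heart tube. The arrays gave it ratios of -0.92 (A) and -0.76 (B). Both arrays put it on the opposite side, and they differed by 0.16, close to the median difference of 0.17 between the arrays over all genes. The mean of -0.84 ± 0.11 (SD, n = 2 arrays) is a 1.79-fold difference, with a 95% confidence interval of -1.11 to -0.56 and a limma adjusted p of 0.00642. Of all genes, 294 had a lower mean than prc.

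The clone behind prc was spotted in 2 preparations, an original and one marked ReAmp in its name. The original probe carried deposited dye ratios of -1.719 (A) and -0.687 (B), where the minus sign is on every deposited value and an ideal dye swap gives sizes whose product is 1. The ReAmp probe carried -2.026 and -0.531. After turning and centring, the original probe lay at -0.80 and -0.57 and the ReAmp probe at -1.03 and -0.94 on arrays A and B. All 4 values were on the opposite side, and each probe also passed limma when tested alone, with adjusted p of 0.0222 and 0.00579. The probe means differed by 0.30, and 73.8% of the 370 clones spotted in both preparations differed by less. Both probes are 1 clone, so they are no independent measurement of the transcript.

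Cubilin, the product of Cubn, is an endocytic receptor with which nephrocytes take up proteins. Its single probe had deposited ratios of -1.366 (A) and -0.645 (B), which gave log2 ratios of -0.47 and -0.66. Cubn was thus on the opposite side on both arrays, with a smaller difference than the averaged prc value on each. On array B the original prc probe alone, at -0.57, showed a smaller difference than Cubn. Its mean of -0.56 ± 0.14 (SD, n = 2 arrays) is a 1.48-fold difference, with an interval of -0.85 to -0.28 and a limma adjusted p of 0.0278. The call was close to the smallest difference that passed in these data, 1.36-fold, and it ended when genes were tested against a 1.2-fold difference (adjusted p = 0.202), a setting in which prc still passed (adjusted p = 0.0235).

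The other nephrocyte member measured was kirre, which encodes an immunoglobulin-domain adhesion protein of the nephrocyte diaphragm that also marks the founder cells in myoblast fusion. Its ratios were 0.23 (A) and 0.17 (B). The arrays lay close together, but the mean of 0.20 ± 0.05 (SD, n = 2 arrays) was too small to pass limma (adjusted p = 0.304), and its interval ran from -0.07 to 0.47. The 2 measured nephrocyte members therefore lay on different sides, and only the negative one passed. Their difference was not tested.

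Of the 4 measured regulators none passed. Him, which encodes a nuclear inhibitor of muscle differentiation that is active in pericardial cells and muscle progenitors, had the highest mean of the members. Its ratios were 0.51 (A) and 0.12 (B), and this gap of 0.39 was wider than that of 84.7% of all genes. The mean of 0.31 ± 0.28 (SD, n = 2 arrays) did not pass limma (adjusted p = 0.198), and its interval of -0.01 to 0.64 allows a difference of up to 1.56-fold on the hemocyte side.

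The T-box gene mid (midline), which acts in cardioblasts with its neighbour H15, had ratios of 0.16 (A) and 0.10 (B). Each is an average over 2 preparations of 1 clone, which did not lie together. The original probe of mid lay at 0.48 and 0.05 on arrays A and B, and the ReAmp probe at -0.15 and 0.14. The preparations differed by 0.63 on array A, more than 85.7% of the clones spotted in both preparations did, and by 0.10 on array B. The mean of 0.13 ± 0.05 (SD, n = 2 arrays) did not pass limma (adjusted p = 0.501), and the ReAmp probe alone had a mean of -0.01.

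**Figure D2:**
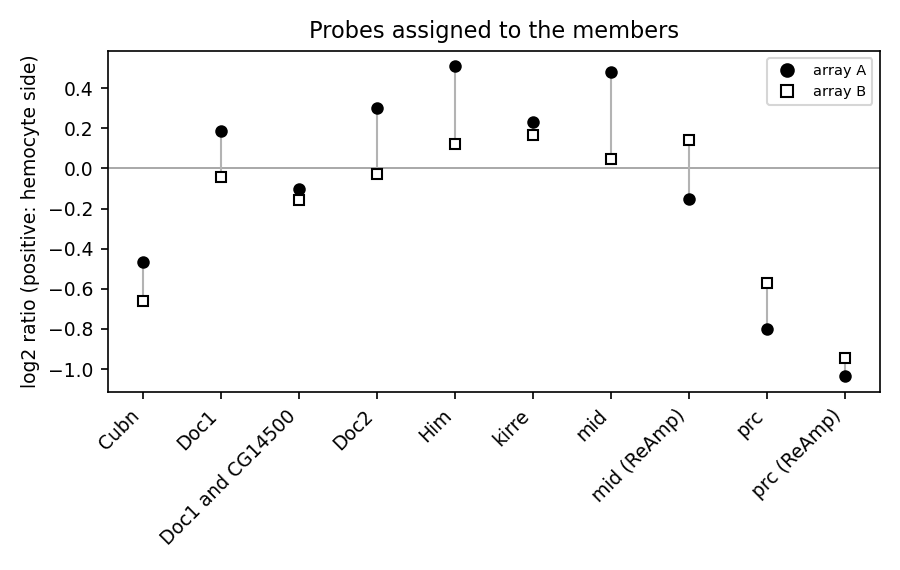
Log2 ratio of every probe that the platform annotation assigns to a member, on array A (filled circles) and array B (open squares), joined by a line per probe. Both prc preparations lie below -0.5 on both arrays, while the 2 mid preparations have opposite signs on array A.

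Doc1 and Doc2 encode Dorsocross T-box factors, which act in the early cardiac mesoderm and in the amnioserosa, and are adjacent protein-coding genes in the RefSeq annotation. Doc1 lay at 0.19 (A) and -0.04 (B), and Doc2 at 0.30 and -0.03. Both had opposite signs on the 2 arrays, as 31.4% of all genes had. The means were 0.07 ± 0.16 for Doc1 (limma adjusted p = 0.751) and 0.14 ± 0.23 for Doc2 (adjusted p = 0.546; SD, n = 2 arrays each). Their intervals ran from -0.22 to 0.36 and from -0.18 to 0.45. The third Dorsocross gene, Doc3, which is separated from Doc2 by 1 annotated protein-coding gene and is no member, lay at 0.01 and -0.08 with a mean of -0.03 ± 0.07 (adjusted p = 0.869). A further probe is assigned to both Doc1 and CG14500 and entered no gene value; it lay at -0.10 (A) and -0.16 (B). Whether the long cDNA probes of Doc1, Doc2 and Doc3 bind each other's transcripts was not tested.

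From lowest to highest mean the members ran prc, Cubn, Doc1, mid, Doc2, kirre and Him. Averaged over its 2 preparations, prc had array values that did not overlap those of Cubn, with differences of 0.45 (A) and 0.09 (B). The original prc probe alone, at -0.80 (A) and -0.57 (B), did overlap Cubn, at -0.47 and -0.66. Cubn in turn lay below Doc1 by 0.65 and 0.62. Each further pair of neighbours in this order, from Doc1 to Him, overlapped between the arrays and had no fixed order. Of the 7 members, 5 had one sign on both arrays, beside 68.6% of all genes.

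**Figure D3:**
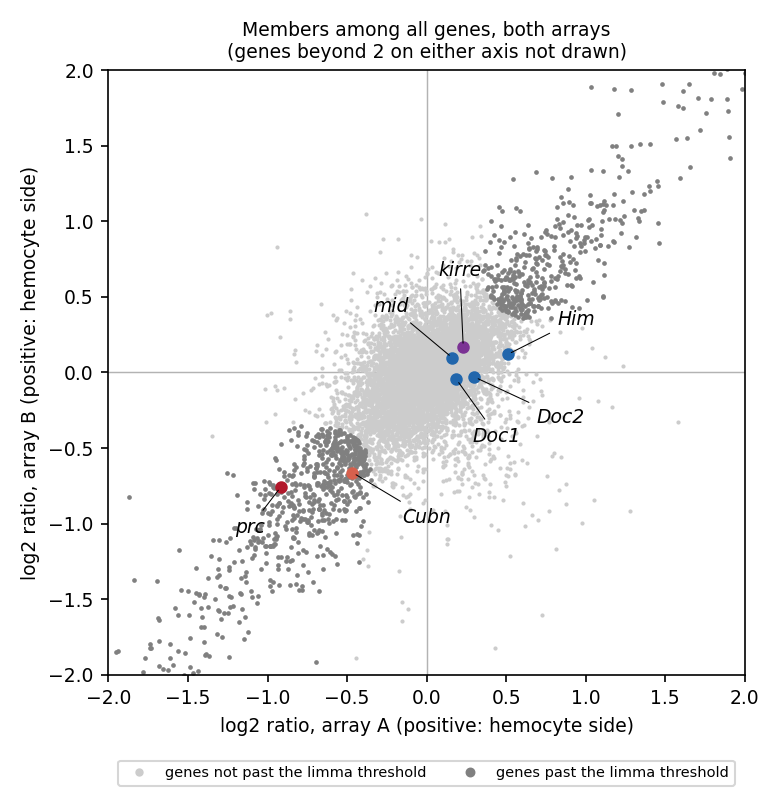
Log2 ratio on array B against array A for all genes within 2 of 0 on both axes (66 of 8224 genes lie outside), with the 7 members in colour. The members prc and Cubn sit among the genes past the limma threshold on the opposite side, and the other 5 members sit among the genes that did not pass.

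Other genes of heart formation were read from the same fit as lists of cardiac regulators, signals, matrix and channel genes, nephrocyte genes and myoblast fusion genes. No test was made over any list. Each is given by its counts and median, with the fit's values for the genes named. The counts stand beside 5.27% of all genes that passed with positive ratios and 8.18% with negative ones. Of 11 measured regulators beside the members, 1 passed with a positive ratio (9.09%) and 0 with a negative one. The list ran from -0.34 to 0.52 with a median of 0.14. The gene that passed was jumu, which encodes a forkhead factor that acts in cardiac progenitors, at 0.47 and 0.57 on arrays A and B (mean 0.52 ± 0.07, limma adjusted p = 0.0306), and its call ended against a 1.2-fold difference (adjusted p = 0.261). The GATA factor gene pnr lay at 0.27 ± 0.13 (adjusted p = 0.189) and the LIM-homeodomain gene tup at 0.20 ± 0.02 (adjusted p = 0.29). The nuclear receptor gene svp, which acts in a subset of cardioblasts, lay at 0.00 ± 0.17.

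Among 10 measured signalling and guidance genes, numb, whose product is divided unequally between daughter cells of cardiac progenitors, passed on the hemocyte side at 0.56 ± 0.09 (limma adjusted p = 0.0251), but not against a 1.2-fold difference (adjusted p = 0.188). The list thus had 10% past the test with positive ratios, beside 5.27% of all genes. None passed on the opposite side, and the list median was 0.11. The signal gene dpp and its mediator Med lay at -0.04 ± 0.15 and 0.04 ± 0.08 without passing.

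Matrix and channel genes of the heart tube went both ways. Past the test were 4 of 18 measured genes with positive ratios (22.2%) and 3 with negative ones (16.7%), with a list median of -0.04. The 3 on the opposite side were Mp, loh and Sur. Multiplexin, the product of Mp, is a collagen of the vertebrate types XV and XVIII kind that is found in the heart and nervous system. Mp lay at -0.93 (A) and -0.86 (B), the lowest mean of the list at -0.90 ± 0.05 (limma adjusted p = 0.00454).

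The gene loh (lonely heart) encodes a secreted ADAMTS-like protein that is known to recruit pericardin to the matrix of the heart. Its ratios were -0.82 (A) and -0.75 (B), so that loh and prc lay on the same side on both arrays. The mean of loh was -0.78 ± 0.05 (1.72-fold, limma adjusted p = 0.00731). Sur, which encodes a sulfonylurea receptor active in the heart tube, had ratios of -0.62 and -0.94 and a mean of -0.78 ± 0.23 (adjusted p = 0.0125). Its call ended when genes were tested against a 1.2-fold difference (adjusted p = 0.0515).

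The matrix genes that passed on the hemocyte side were led by Ppn, which encodes papilin, at 2.39 ± 0.10. Next came the collagen IV gene Col4a1 at 1.01 ± 0.13. The collagen-binding protein gene SPARC passed at 0.82 ± 0.32 and the laminin gene LanA at 0.60 ± 0.16. A further laminin gene, LanB1, lay at 0.50 ± 0.22 and did not pass (limma adjusted p = 0.0527). LanB1 did pass without centring (adjusted p = 0.0226), with scaled arrays (0.0444) and with robust moderation (0.0313). The laminin gene LanB2 lay on the opposite side at -0.19 ± 0.15 and the other collagen IV gene, vkg, at 0.22 ± 0.10. Neither passed (limma adjusted p = 0.357 and 0.267). LanA, LanB1 and LanB2 fall outside the rule for named genes and were named after their values were seen. The calls of SPARC and LanA ended against a 1.2-fold difference (limma adjusted p = 0.0578 and 0.161). Ppn, Col4a1 and vkg also stand in the plasmatocyte list. Of the 12 plasmatocyte markers, 9 passed on the hemocyte side (75%, beside 5.27% of all genes). This count was 8 without probes marked ReAmp, rdnd or dupe, and 8 against a 1.2-fold difference. Without the 3 genes shared with the plasmatocyte list, 2 of 15 matrix and channel genes passed with positive ratios and 3 with negative ones. The median of these 15 was -0.09. The 2 positive ones were SPARC and LanA, and the part of blood cells in their ratios was not tested. The integrin gene scb (0.02 ± 0.08) and the cardiac membrane protein gene tinc (0.03 ± 0.03) were nearest to 0.

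**Figure D4:**
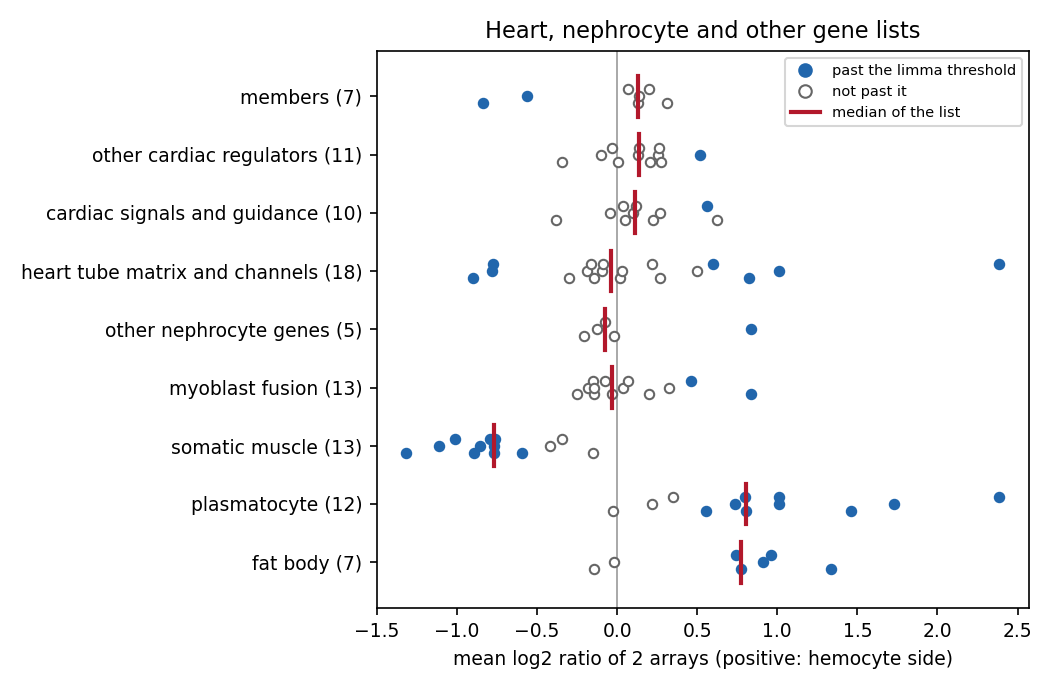
Mean log2 ratio over both arrays of each measured gene in 9 lists, with the number measured in brackets, genes past the limma threshold filled and the list median as a red bar. The heart tube matrix and channel list spreads from -0.90 to 2.39, the other cardiac regulators lie between -0.34 and 0.52, and all 13 muscle genes lie below 0.

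Beside the members, 5 nephrocyte genes were measured. Hibris (hbs), a relative of Sns that shares roles with it in cell adhesion, passed on the hemocyte side at 0.89 (A) and 0.77 (B), with a mean of 0.83 ± 0.09 (limma adjusted p = 0.00613). Both preparations of its clone lay on that side, and their means differed by 0.08. The other 4 did not pass, among them rst, a paralog of kirre, at -0.08 ± 0.01 and the junction scaffold gene pyd at -0.02 ± 0.02. The list thus had 1 of 5 genes (20%) past the test on the hemocyte side, beside 5.27% of all genes, and a median of -0.08.

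Sns, Hbs, Kirre and Rst also act in myoblast fusion. The 13 measured fusion genes, kirre among them, had a median of -0.03. Of the 13, 0 passed with negative ratios and 2 with positive ones (15.4%, beside 5.27% of all genes). These were hbs and tum, whose product is known mainly from cytokinesis, at 0.46 ± 0.08 (limma adjusted p = 0.0462). The call of tum ended against a 1.2-fold difference (adjusted p = 0.467). The fusion gene blow lay at -0.03 ± 0.19 and the mesoderm factor gene twi at 0.04 ± 0.02.

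Contractile genes of muscle lay on the same side as prc, Cubn, Mp, loh and Sur. All 13 measured somatic muscle genes were below 0, from -1.32 to -0.15 with a median of -0.77, and 10 of them passed on the opposite side, 76.9% against 8.18% of all genes. The muscle list is led by Mlp60A (-1.32 ± 0.20) and ends with Act87E (-0.35 ± 0.04) and Msp300 (-0.15 ± 0.10), and the part of muscle in the ratios of the heart genes was not tested. Heart cells also use many of these contractile genes. On the other side, fat body markers had a median of 0.77 with 5 of 7 past the test (71.4%, beside 5.27% of all genes). Against a 1.2-fold difference, 8 of the 13 muscle genes and 4 of the 7 fat body markers passed, beside 535 of all 8224 genes. Of the crystal cell markers 2 of 4 passed (50%, beside 5.27% of all genes), the prophenoloxidase genes PPO1 and PPO2. Their side is no separate result, since the sign was chosen with such marker values known. The crystal cell markers peb, at 0.17 ± 0.25, and klu, at 0.283 ± 0.001, did not pass (limma adjusted p = 0.459 and 0.159). Of the visceral muscle and midgut markers 2 of 4 passed on the hemocyte side (50%, beside 5.27% of all genes), the midgut amylase genes Amy-p and Amy-d. The visceral muscle gene bin lay at 0.28 ± 0.34 and did not pass (limma adjusted p = 0.281). The midgut protease gene Jon65Aiii of the same list lay at -0.82 ± 0.64 and did not pass (limma adjusted p = 0.0588), but passed on the opposite side without centring (adjusted p = 0.0212) and with scaled arrays (0.0407).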

How the data were processed

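The table deposited by the authors holds a score below 0 for each of the 24023 values present; the scanner, background correction and normalization behind it were not stated in any label or header. The deposited values have medians of -0.989 and -1.021 and the form of a linear dye ratio times -1, and the log2 sizes of the arrays had r = -0.689 across probes, as a dye swap gives. Without intensities, signal over background is unknown; precision is limited by having 2 arrays. The log2 size was taken, turned by the dyes in the labels with Cy3 as numerator, and centred on each array's median. Of 12144 probes, 9917 had 1 gene symbol, 625 several and 1602 none; 9746 of the first matched the RefSeq table of the Release 6 assembly. Only probes with 1 symbol and both values entered (9793), and probes of a gene were averaged. Limma 3.58.1 in R 4.3.3 (lmFit, intercept only, eBayes; 1 residual and 5.01 prior degrees of freedom) tested 8224 genes against 0, with Benjamini-Hochberg adjustment over all genes, and 1106 (13.4%) passed 0.05, while 2264 had an unadjusted p under 0.05. The procedure was also run on simulated data, with 200 changed genes and independent noise drawn from limma's own prior. That run checks only the working of the procedure. It holds no dye, probe or shared-extract effects and says nothing of the calls made here. Members and the 10 other gene lists were chosen with earlier results of these data known. Named genes were all measured members, the checks srp, PPO1 and PPO2, and of each other list up to 6 genes past the threshold with the largest mean and the 2 nearest to 0, plus Doc3, rst, hbs, pnr and tup as related genes; muscle, plasmatocyte and fat body lists are mostly given as counts. Alternatives were no centring, scaled arrays, other uses of the probes, robust moderation, a test against 1.2-fold, and each array alone.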

Additional observations from a re-analysis of the deposited data

How the results depend on the processing

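The calls of prc and Cubn held without centring, with scaled arrays, with the probe of largest change, with each probe tested alone, without probes marked ReAmp, rdnd or dupe, and with robust moderation. Against a 1.2-fold difference, Cubn at -0.56 no longer passed (limma adjusted p = 0.202), so that 1 of 7 members and 535 of 8224 genes passed, a stricter question by construction. In these 7 settings the mean of prc ran from -0.99 to -0.68, and no member that had not passed did so. The sign of each member's mean also stayed the same in them, taking for mid the original probe when probes were tested alone. A single array allows no limma test; at least 2-fold were 0 of 7 members on either array alone, and 303 to 369 of all genes. No paired analysis was possible because the arrays form 1 group. With 2 arrays, a member whose interval includes 0 is not shown to be unaltered.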

Other observations

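Of the 98 measured genes of all lists, members included, 23 had opposite signs on the 2 arrays, beside 31.4% of all genes. The widest gap belonged to tkv, which encodes a receptor for the Dpp signal that induces cardiac mesoderm, at 1.58 on array A and -0.33 on array B, and its mean of 0.63 ± 1.35 (SD, n = 2 arrays) did not pass limma (adjusted p = 0.377). The basement membrane gene Ndg lay at 0.40 and -0.59. The guidance receptor gene robo1, which acts in the alignment of heart cells, had a value on array A only, -0.15. These genes were singled out after their values were seen.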
